A study of Sus scrofa with 63 samples.

Results

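The genes described here encode mucosal defence and antimicrobial proteins of the intestine: PIGR, DMBT1, REG3G, LYZ, LCN2, DUOX2, DUOXA2, NOX1, BPI and LBP. Their values were taken from every array probe whose gene name equals one of these symbols in any letter case. This gave 25 of the 60305 probes of the array, for 9 of the 10 genes. No probe carried the name NOX1, so this oxidase was not analysed here. The array listed 45222 gene names in all.

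The data are RNA levels in the middle jejunum of 63 male pig fetuses taken by caesarean, measured on one-colour Agilent arrays with 1 fetus per array. Purebred Large White (LW) and Meishan (MS) fetuses were compared with both reciprocal crosses, LWMS, sired by LW boars on MS sows, and MSLW, sired by MS boars on LW sows, at gestational day 90 and day 110. At day 90 there were 9 LW, 6 MS, 9 LWMS and 8 MSLW fetuses, and at day 110 there were 9 LW, 7 MS, 9 LWMS and 6 MSLW fetuses. The study asked how the jejunum matures before birth in breeds that differ in survival at birth.

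The newborn intestine meets bacteria, milk antibodies and endotoxin within hours of birth, and its epithelium carries several layers of defence. PIGR takes IgA across the epithelium, secreted proteins such as DMBT1, REG3G and LYZ bind or kill bacteria in the mucus, and LBP, BPI and LCN2 act on bacterial lipopolysaccharide or iron capture. DUOX2 with its maturation factor DUOXA2, and NOX1, are epithelial oxidases that release hydrogen peroxide or superoxide at the surface.

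Each probe is an oligonucleotide of 60 bases, and the ones shown here carry or qualify the comparisons that follow. LCN2 was printed on the array under 3 probe names with 1 sequence, so these 3 are a repeat of the same measurement. REG3G had a single probe. BPI and LBP encode related proteins of neighbouring genes, and the LBP probe shared at most 6 bases in a row with either BPI probe. The DMBT1 probe is 1 of its 3, all of which separated the ages, and the PIGR probe is the dimmer of its pair, which was not bright enough to be tested. All are written 5′ to 3′ as the array files give them, in lower case because no part of them is singled out, and their position in the genome was not determined here.
LCN2, probes A_72_P563459, A_72_P000426 and O902: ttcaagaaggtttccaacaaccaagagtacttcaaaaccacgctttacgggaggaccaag
REG3G, probe A_72_P259402: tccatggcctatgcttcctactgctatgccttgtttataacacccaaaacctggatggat
BPI, probe A_72_P213667: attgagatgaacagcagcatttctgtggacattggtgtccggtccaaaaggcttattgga
LBP, probe A_72_P236672: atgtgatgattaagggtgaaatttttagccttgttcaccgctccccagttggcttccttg
DMBT1, probe A_72_P537573: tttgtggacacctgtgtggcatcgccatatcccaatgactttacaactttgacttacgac
PIGR, probe A_72_P303009: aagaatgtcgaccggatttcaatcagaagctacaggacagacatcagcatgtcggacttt

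A level is the log2 of the background-corrected spot intensity less its array's 75th percentile, so 0 is the brightness of that percentile and each unit is a 2-fold step. The share of probes well above background ranged from 51.2 to 87.6% of an array (median 66.7%). Tests covered the 40515 probes that exceeded background clearly in 75% or more of the fetuses of some group. Of the 25 member probes, 17 from 8 genes were tested, and none of the 5 DUOX2 probes was. Each gene is given by its brightest tested probe, and levels of different probes are not compared with each other. In bulk tissue, fewer cells of a type and less RNA per cell cannot be told apart. Litter mates counted as independent fetuses because the labels do not give the sow, so p-values measure the spread between these fetuses. They do not measure the spread between sows, although all fetuses of a litter share the breed of sow and the day. EPCAM, CDH1 and KRT8, which mark epithelium, were above background on all 63 arrays. ELANE and MPO, which mark neutrophil precursors, were above it on 30 arrays each. Of the other neutrophil markers, S100A8 was above it on 62 arrays, CXCR2 on 61, S100A9 on 56 and PRTN3 on 22.

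Fetus 632 (MS, day 110) stood apart in several members. Its level of REG3G was -3.81, of LYZ -1.18, of LBP -4.95 and of BPI -6.43, the last pair not above background. Its levels of PIGR (-0.92) and DMBT1 (7.87) were inside or at the top of the range of its group. The summed level of 4 goblet cell markers was 49.4 in this fetus, the lowest of all, against a median of 304 at day 110, and its summed level of 5 hepatocyte-list genes was 2.12 against a median of 108. Over the arrays, the latter sum was set mostly by 1 gene, APOA2. Fetus 450 (MSLW, day 90) had low LYZ (-2.99) and BPI (-4.63). Results that rest on these fetuses are given with and without them, a choice made after their values were seen.

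The levels of most members rose steeply in the last weeks of gestation. Averaged over the 4 genotypes, 15 of the 17 member probes passed the threshold for a change between day 90 and day 110 (limma, adjusted p of 0.01 or less and a log2 difference of 0.5 or more in either direction), where 13.8% of all probes tested did. Of these, 12 probes of 6 genes were higher at day 110 (6.07% of all probes), and the 3 LCN2 probes were lower. The LCN2 probes entered the tests only through day 90 groups, so the filter itself favoured a fall. The median log2 difference over all probes was -0.02. The members were chosen with earlier results of these data known, and several probes read the same gene. The member probes are thus neither an independent sample of all probes nor separate measurements.

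**Figure D1:**
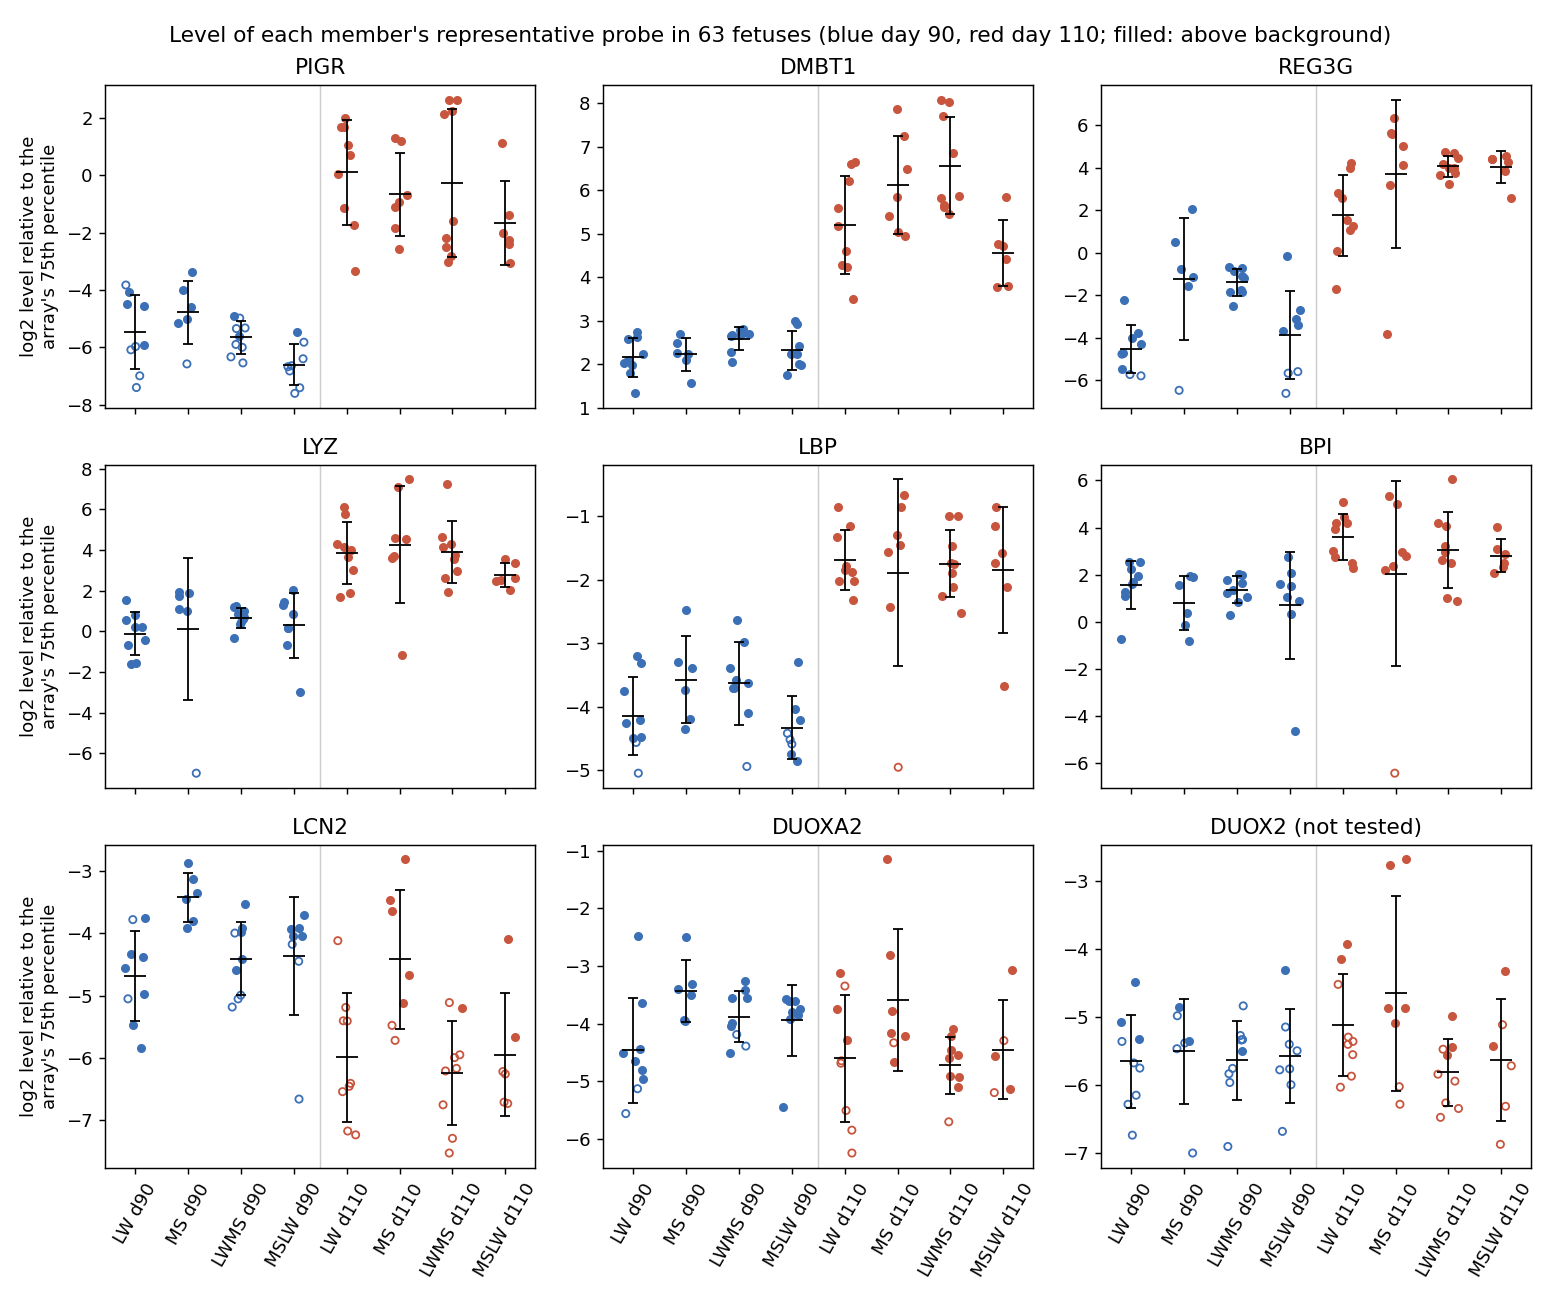
Log2 level (against the array's 75th percentile) of the representative probe of each of the 9 genes in the 8 genotype and day groups, 1 point per fetus, filled where above background, with group mean and SD. PIGR and DMBT1 at day 110 lie above every day 90 fetus, LCN2 is lower at day 110, and fetus 632 gives the low points of REG3G (-3.81), LBP (-4.95) and BPI (-6.43) in MS at day 110.

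PIGR, the receptor that carries polymeric IgA and IgM from the tissue to the gut lumen, changed from near background to clearly measurable. At day 90 its lowest, median and highest levels were -7.40, -5.90 and -3.83 in LW, and -6.58, -4.81 and -3.36 in MS. They were -6.54, -5.59 and -4.90 in LWMS and -7.61, -6.66 and -5.47 in MSLW. Only 12 of these 32 arrays had the probe above background, among them 5 of the 6 MS arrays. At day 110 the levels were -3.35, 0.72 and 2.01 in LW, -2.57, -0.92 and 1.29 in MS, -3.04, -1.59 and 2.64 in LWMS, and -3.07, -2.13 and 1.12 in MSLW. On this probe, all 31 day 110 fetuses were above background and above all 32 day 90 fetuses. The share of all probes that separated the ages in this way was not counted. On the dimmer, untested PIGR probe, 15 of 31 day 110 fetuses were above background and 14 lay above every day 90 fetus. The log2 difference of the tested probe averaged over genotypes was 5.01 (SE 0.38, 32.2-fold, limma adjusted p = 1.45e-16). Because so many day 90 spots were near background, this size is uncertain: it was 2.81 with normexp background correction and 3.39 in the authors' processed values, and a probe filed under the RefSeq accession of PIGR rose by 2.57.

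REG3G, a C-type lectin that kills Gram-positive bacteria and is secreted by the intestinal epithelium, had the largest change of the members. At day 90 its levels were -5.79, -4.72 and -2.23 in LW, -6.47, -0.97 and 2.06 in MS, -2.52, -1.20 and -0.65 in LWMS, and -6.61, -3.53 and -0.16 in MSLW. At day 110 they were -1.72, 1.55 and 4.20 in LW, -3.81, 5.01 and 6.31 in MS, 3.23, 4.00 and 4.73 in LWMS, and 2.58, 4.34 and 4.57 in MSLW. Of the 31 day 110 fetuses, 25 lay above the highest day 90 fetus. The mean log2 difference was 6.14 (SE 0.46, 70.7-fold, limma adjusted p = 9.45e-17), which ranked 2 among the 40515 probes. Its size is uncertain, since the probe was above background on 25 of 32 day 90 arrays. It was 5.18 with normexp background correction and 5.39 in the authors' processed values. Within groups the spread was uneven: the SD was 2.89 and 3.48 in MS at day 90 and day 110 and 0.63 and 0.49 in LWMS.

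DMBT1, a scavenger receptor glycoprotein of mucosal secretions that aggregates bacteria, was bright at both ages and separated them without overlap. At day 90 its levels were 1.33, 2.09 and 2.74 in LW, 1.58, 2.24 and 2.69 in MS, 2.04, 2.68 and 2.81 in LWMS, and 1.75, 2.23 and 2.99 in MSLW. At day 110 they were 3.50, 5.18 and 6.64 in LW, 4.96, 5.85 and 7.87 in MS, 5.46, 5.86 and 8.09 in LWMS, and 3.79, 4.57 and 5.84 in MSLW. On each of its 3 probes, all 31 day 110 fetuses exceeded all 32 day 90 fetuses, and the share of all probes that did so was not counted. The mean log2 difference was 3.29 (SE 0.20, 9.78-fold, limma adjusted p = 1.49e-20), and 3.28 and 3.24 on the other probes.

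LYZ, the lysozyme that cleaves bacterial peptidoglycan, rose by 3.45 on the log2 scale (SE 0.45, limma adjusted p = 5.41e-09). Its medians at day 90 were 0.20 in LW, 1.43 in MS, 0.70 in LWMS and 0.52 in MSLW, and at day 110 they were 4.01, 4.56, 3.76 and 2.57 in the same order. At day 110, 26 of 31 fetuses were above the highest day 90 fetus, and the other 3 probes gave differences of 3.11 to 3.16. Fetus 524 (MS, day 90) read -6.97 on the probe used, not above background, and 0.72 on a probe that shares 45 of its bases, so this low value was not seen on the overlapping probe. The remaining LYZ probes read -0.20 and -0.77 in this fetus.

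LBP and BPI are related lipid-binding proteins: LBP hands lipopolysaccharide to CD14, and BPI neutralises it and kills Gram-negative bacteria. LBP rose by 2.13 (SE 0.19, 4.37-fold, limma adjusted p = 7.38e-14), from medians of -4.25 in LW, -3.56 in MS, -3.63 in LWMS and -4.47 in MSLW to -1.85, -1.46, -1.75 and -1.66. This size is uncertain, since 26 of 32 day 90 arrays were above background. It was 1.33 with normexp and 1.585 in the authors' processed values. At day 110, 28 of 31 fetuses lay above every day 90 fetus, and fetus 632 at -4.95 was among those that did not. BPI rose by 1.76 (SE 0.45, 3.40-fold, limma adjusted p = 0.00113), and by 2.12 without fetus 632. The BPI levels of the 2 ages overlapped, from -4.63 to 2.77 at day 90 and from -6.43 to 6.04 at day 110, with 18 of 31 day 110 fetuses above all day 90 fetuses. The second BPI probe followed the first closely over the arrays (r = 0.99) and gave 1.71.

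LCN2, the lipocalin that withholds iron from bacteria by binding their siderophores, went the other way. At day 90 its levels were -5.85, -4.55 and -3.76 in LW, -3.92, -3.39 and -2.87 in MS, -5.18, -4.41 and -3.52 in LWMS, and -6.66, -4.04 and -3.70 in MSLW. At day 110 they were -7.24, -6.41 and -4.12 in LW, -5.72, -4.67 and -2.81 in MS, -7.53, -6.17 and -5.11 in LWMS, and -6.73, -6.24 and -4.09 in MSLW. The ages overlapped in every genotype, and the probe was above background in 0 of 9 LW, 1 of 9 LWMS, 2 of 6 MSLW and 5 of 7 MS fetuses at day 110. It fell by 1.43 on the log2 scale (SE 0.21, limma adjusted p = 1.92e-07), and by 1.33 and 1.49 on the probes of the same sequence. As a measure of technical error, levels on these 3 probes correlated at 0.788 to 0.904 over arrays, and in 1 fetus they differed by up to 3.56. With normexp background correction the difference was -0.26 (adjusted p = 0.0195) and did not pass, so its size near background is uncertain.

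The oxidase genes gave little signal. DUOX2, which makes hydrogen peroxide at the epithelial surface, had group means between -5.82 and -4.65 on its brightest probe, which was above background on 1 to 5 arrays of a group. Its other probes disagreed. Probes A_72_P232907 and O7853 were above background on 0 of 32 day 90 arrays, and on 6 and 9 of 31 day 110 arrays. Probes A_72_P773667 and A_72_P444501 were above it on 6 and 3 day 90 arrays, and on 2 and 1 day 110 arrays. DUOXA2, which brings DUOX2 to the membrane and is its neighbour in the genome, had medians of -4.65 in LW, -3.45 in MS, -3.99 in LWMS and -3.77 in MSLW at day 90. At day 110 its medians were -4.65, -4.17, -4.60 and -4.56, with 1 of the 6 MSLW spots left out as an outlier. Its log2 difference of -0.41 (SE 0.21, limma adjusted p = 0.109) did not pass, nor did that of its second tested probe (-0.08, adjusted p = 0.756).

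The change with age was of the same sign on every one of the 8 slides for 6 genes, each slide holding fetuses of both days. The difference within a slide ranged from 4.23 to 8.18 for REG3G, 4.22 to 6.39 for PIGR, 1.91 to 6.69 for LYZ, 2.28 to 4.82 for DMBT1, 1.23 to 2.62 for LBP and -2.75 to -0.72 for LCN2. The LYZ value of 6.69 came from the slide that held fetuses 524 and 450, and the next largest was 4.12. For BPI it was positive on 7 slides, from -0.28 to 4.09.

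Taken by genotype, PIGR, DMBT1, REG3G and LBP passed in all 4 genotypes. The log2 differences in LW, MS, LWMS and MSLW were 5.59, 4.13, 5.38 and 4.94 for PIGR, 3.05, 3.90, 3.98 and 2.24 for DMBT1, 6.28, 4.95, 5.46 and 7.88 for REG3G, and 2.46, 1.69, 1.88 and 2.48 for LBP. With normexp, PIGR missed the threshold in MS (2.44, adjusted p = 0.0143) and MSLW (2.17, adjusted p = 0.0179), and with no filter on dim probes LBP missed it in MS (adjusted p = 0.0102). LYZ rose in LW (3.96) and LWMS (3.23). In MS its difference of 4.15 passed only on the probe with the low spot of fetus 524, and the other 3 probes gave 2.91 to 3.03 (limma adjusted p = 0.0118 to 0.0203). The LYZ difference of 2.47 in MSLW had a limma adjusted p of 0.0759. LCN2 fell in LWMS (by 1.84), though with normexp (-0.47, adjusted p = 0.0363) it did not pass, and its differences were -0.99 in MS and -1.58 in MSLW. In MSLW, 1 of the 3 LCN2 probes passed (O902, -2.48, limma adjusted p = 3.42e-04). In LW no day 110 array was above background for LCN2, so no size is given. BPI passed in no single genotype, with differences of 1.23 to 2.11 and limma adjusted p from 0.105 to 0.511. The number of member probes called was 10 in LW, where 4.76% of all probes were, 7 in MS (3.12%), 13 in LWMS (9.86%) and 7 in MSLW (5.43%). Without fetus 632, the change in MS was 6.21 for REG3G, 5.06 for LYZ, 2.20 for LBP and 2.64 for BPI (limma adjusted p = 0.0167). The LYZ value is again from the probe with the low spot of fetus 524, which enlarges it. Sizes on the other LYZ probes without fetus 632 are not given.

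**Figure D2:**
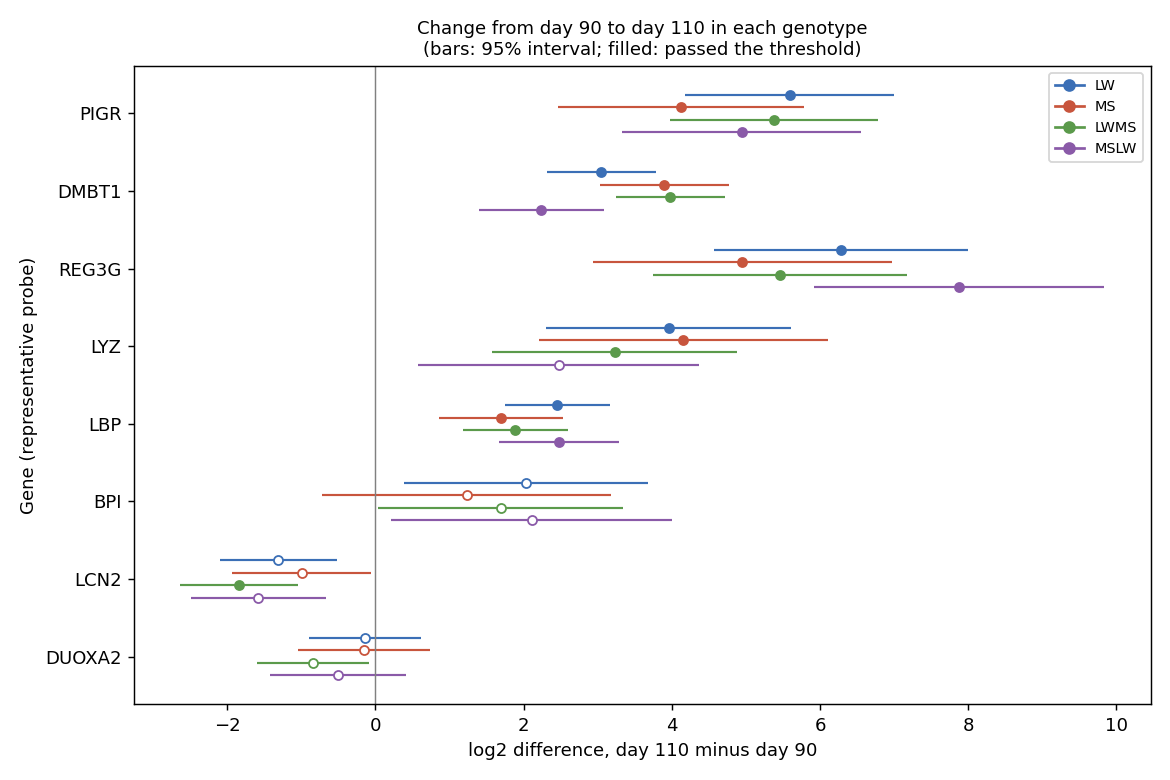
Log2 difference, day 110 minus day 90, of the representative probe of 8 genes in each of the 4 genotypes, with 95% intervals, filled where the change passed the threshold. PIGR, DMBT1, REG3G and LBP pass in all 4 genotypes (PIGR not in MS and MSLW with normexp), and LCN2 lies to the left of 0, its LW point resting on day 110 signals at background.

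No difference between genotypes in these changes passed its own test. The test of a different change with age in MS and LW called 0 of 17 member probes with limma, with 0 at an unadjusted p under 0.05, where 0.0173% of all probes were called. The F test of genotype by age called 0, with 3 at an unadjusted p under 0.05, all of them DMBT1 probes (0.0222% of all probes called). By contrast, the F test of any difference between the 8 groups called 13 of 17 probes, of 6 genes, against 28.7% of all probes. The model with the lowest BIC, given as a description, held age alone for PIGR, LYZ, LBP and BPI, and age plus genotype for REG3G and all 3 LCN2 probes. The 3 DMBT1 probes had a different lowest model each, by BIC gaps of 0.244 to 1.002.

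Between the purebreds, only LCN2 passed the threshold, and only near term. At day 90, 0 of 17 member probes were called with limma, with 6 at an unadjusted p under 0.05, where 3.58% of all probes were called. The mean REG3G level was -1.24 ± 2.89 (SD, n = 6) in MS fetuses. In LW fetuses it was -4.54 ± 1.13 (SD, n = 9). The difference of 3.30 (SE 0.95, limma adjusted p = 0.0219) missed the threshold, and it passed once fetus 632, which belongs to another group but enters the shared variance, was left out (adjusted p = 0.00286). LCN2 differed by 1.26 (adjusted p = 0.0740) and DUOXA2 by 1.03 (adjusted p = 0.150).

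At day 110, LCN2 was higher in MS than in LW on 2 of its 3 probes, where 5% of all probes were called. None of the 9 LW fetuses had LCN2 above background, so MS was at least 1.21-fold higher on the representative probe (limma adjusted p = 0.00841) and at least 1.24-fold on A_72_P000426 (adjusted p = 0.00358). This bound compares the MS mean over 5 of 7 fetuses above background and 2 below it with, per array, the higher of the lowest signal above background and the measured LW signal. On O902, of the same sequence, the limma adjusted p was 0.0194, which missed the threshold. The mean REG3G level was 3.72 ± 3.48 (SD, n = 7) in MS fetuses. In LW fetuses it was 1.75 ± 1.89 (SD, n = 9), a difference of 1.97 (adjusted p = 0.174). Without fetus 632 the REG3G difference was 3.22 (adjusted p = 0.00319) and passed. DMBT1 differed by 0.92 (adjusted p = 0.134) and DUOXA2 by 1.02 (adjusted p = 0.0999).

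The reciprocal crosses separate the breed of the sow from that of the sire. Averaged over days and sires, fetuses of MS sows had higher REG3G, DMBT1 and LCN2 than fetuses of LW sows. In all, 6 of 17 member probes passed (limma adjusted p under 0.05), where 16% of all probes did. Litter mates share the sow and counted as independent, so p-values by sow can be too small. The mixed model of the study reported maternal effects only in interaction with gestational age, and none of the paternal genotype. REG3G was 1.95 higher (SE 0.46, 3.85-fold, limma adjusted p = 0.00205). DMBT1 was 0.82 higher (SE 0.20, adjusted p = 0.00263), and all 3 of its probes passed. LCN2 was 0.63 higher (SE 0.21, adjusted p = 0.0360) on the representative probe. Its size is uncertain, since the groups compared include LW at day 110, with LCN2 above background on 0 of 9 arrays. The array scaling bears on comparisons by sow: of all probes called, 45.5% were higher with MS sows, and 74.2% were with median centring, which moved the median difference of all probes from 0.02 to 0.12. REG3G and DMBT1 passed under all 12 alternative settings, whereas LCN2 missed the threshold with normexp (0.22, adjusted p = 0.0846) and with no filter on dim probes (adjusted p = 0.0515).

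Comparing sows at each day separately, a choice made after the values were seen, showed REG3G past the threshold at day 90, and DMBT1 and 1 LCN2 probe at day 110. At day 90, REG3G averaged -1.24 ± 2.89 (SD, n = 6) in MS and -1.39 ± 0.63 (SD, n = 9) in LWMS, both from MS sows. From LW sows, it averaged -4.54 ± 1.13 (SD, n = 9) in LW fetuses and -3.86 ± 2.06 (SD, n = 8) in MSLW fetuses. REG3G was above background on 6 of the 9 LW and 5 of the 8 MSLW arrays, so the size of a difference by sow is uncertain. Under the 12 alternative settings it was 1.824 to 3.015. In the main fit the log2 difference by sow was 2.88 (SE 0.65, 7.38-fold, limma adjusted p = 0.00241), where 5.65% of all probes were called. At day 110 it was 1.01 (adjusted p = 0.371), and 1.64 without fetus 632 (adjusted p = 0.0396).

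DMBT1 at day 110 averaged 6.12 ± 1.12 (SD, n = 7) in MS and 6.57 ± 1.11 (SD, n = 9) in LWMS, both from MS sows. From LW sows, it averaged 5.21 ± 1.13 (SD, n = 9) in LW fetuses and 4.55 ± 0.76 (SD, n = 6) in MSLW fetuses. The groups overlapped, since the lowest MS-sow fetus was at 4.96 and the highest LW-sow fetus at 6.64. The difference by sow was 1.47 (SE 0.28, 2.76-fold, limma adjusted p = 2.77e-04), where 9.97% of all probes were called. At day 90 it was 0.17 (adjusted p = 0.772). The LCN2 probe called by sow at day 110 was O902 (1.05, limma adjusted p = 0.0328), and the other probes of its sequence gave 0.64 and 0.72 and did not pass. These LCN2 sizes are uncertain too, as no LW array of that day was above background. Whether the difference by sow itself changed with age did not pass the test for either gene. DMBT1 had a difference of 1.30 (SE 0.40, unadjusted p = 0.00189, limma adjusted p = 0.124) and REG3G of -1.87 (unadjusted p = 0.0475, adjusted p = 0.451). For this test 0 of 17 member probes were called with limma, with 4 at an unadjusted p under 0.05 (0.388% of all probes called).

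By breed of the sire, 2 of 17 member probes passed, where 6.95% of all probes did, and both were LCN2 probes. LCN2 was higher with an MS sire by 0.80 (SE 0.21, limma adjusted p = 0.0121) and by 0.93 on the second probe (adjusted p = 0.0132). With normexp the difference was 0.26 (adjusted p = 0.0772) and did not pass, and the groups compared include LW at day 110, with LCN2 above background on 0 of 9 arrays. Day by day, 0 member probes passed at day 90 with limma (2 at an unadjusted p under 0.05, 2.1% of all probes called), and 1 LCN2 probe did at day 110 (2.14%). Over the 8 groups, the mean LCN2 level was highest in MS at day 90 and lowest in LWMS, LW and MSLW at day 110, a trio whose ranges overlapped. DUOXA2 was higher with an MS sire by 0.56 (95% interval 0.15 to 0.98, limma adjusted p = 0.0921), which did not pass. REG3G differed by 0.69 (95% interval -0.24 to 1.61) and DMBT1 by -0.33 (95% interval -0.72 to 0.07). For the change with age by sire, 0 of 17 member probes were called with limma, with 0 at an unadjusted p under 0.05 (0% of all probes called).

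**Figure D3:**
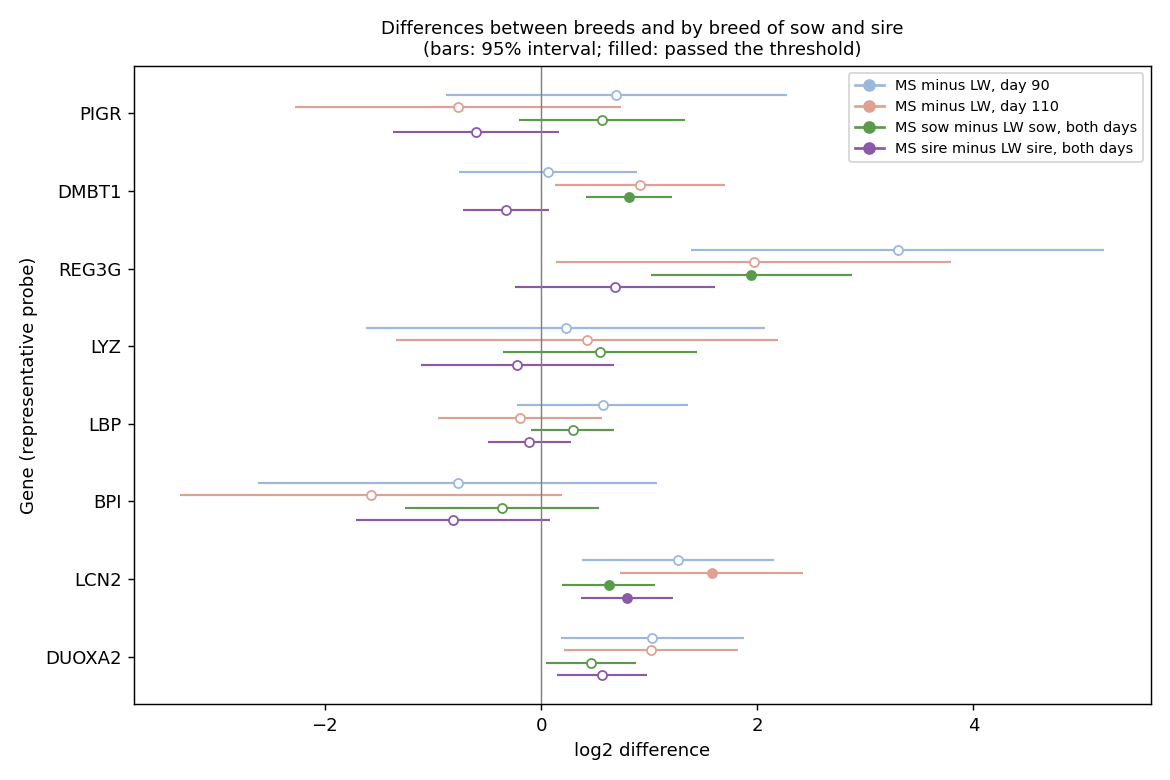
Log2 differences of the representative probe of 8 genes for MS minus LW at each day and for MS minus LW sows and sires over both days, with 95% intervals, filled where the difference passed. The differences by sow pass for REG3G (1.95), DMBT1 (0.82) and LCN2 (0.63), and the difference by sire for LCN2 (0.80).

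Some members also varied together between fetuses of the same group. Only pairs of members were examined, so whether pairs of other genes correlate as often was not determined. After the group mean was subtracted, 8 of the 28 pairs of genes had a Pearson correlation with an adjusted permutation p under 0.05 (100000 permutations within groups, two-sided), all of them positive, and 7 also passed by Spearman's rho. DMBT1 and PIGR correlated at r = 0.57 (rho = 0.54, adjusted permutation p = 0.00252), LYZ and PIGR at 0.43 (rho = 0.59, adjusted permutation p = 0.00252), and BPI and PIGR at 0.41 (rho = 0.56, adjusted permutation p = 0.00252). Without the 2 fetuses farthest from the median of the first gene, these were 0.56, 0.59 and 0.55. BPI and LYZ had r = 0.62 (rho = 0.45, adjusted permutation p = 0.00168), and 0.44 without those fetuses. PIGR thus took part in 4 of the 8 pairs, the fourth with DUOXA2 (r = 0.33, rho = 0.33, adjusted permutation p = 0.0495).

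The other 3 pairs no longer passed once fetuses 632 and 450 were both left out. BPI and REG3G went from r = 0.58 to 0.25 (adjusted permutation p = 0.136), LBP and REG3G from 0.47 to 0.18 (adjusted permutation p = 0.314), and DMBT1 and DUOXA2 from 0.40 to 0.32 (adjusted permutation p = 0.115). The pairs described before still passed, at 0.37 to 0.61. Of them, DUOXA2 and PIGR missed the threshold with median centring (adjusted permutation p = 0.0769), with quantile normalization (0.0720) and without LW fetuses 484 and 469 (0.0831), and DMBT1 and DUOXA2 also missed it with median centring (0.35, adjusted permutation p = 0.0769). Within day 110 alone, DMBT1 and PIGR had r = 0.62 and LYZ and PIGR 0.52 (adjusted permutation p = 0.0063 for each). BPI and LYZ had 0.81 (adjusted permutation p = 0.00196) and BPI and PIGR 0.49 (0.0063) at that day. Within day 90 alone DMBT1 and PIGR had 0.33 and LYZ and PIGR 0.31, and neither passed. Nor did BPI and LYZ (0.37, adjusted permutation p = 0.198) or BPI and PIGR (0.17, 0.416). PIGR was above background on only 12 of 32 day 90 arrays, which limits its pairs there. The difference between days was not tested.

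**Figure D4:**
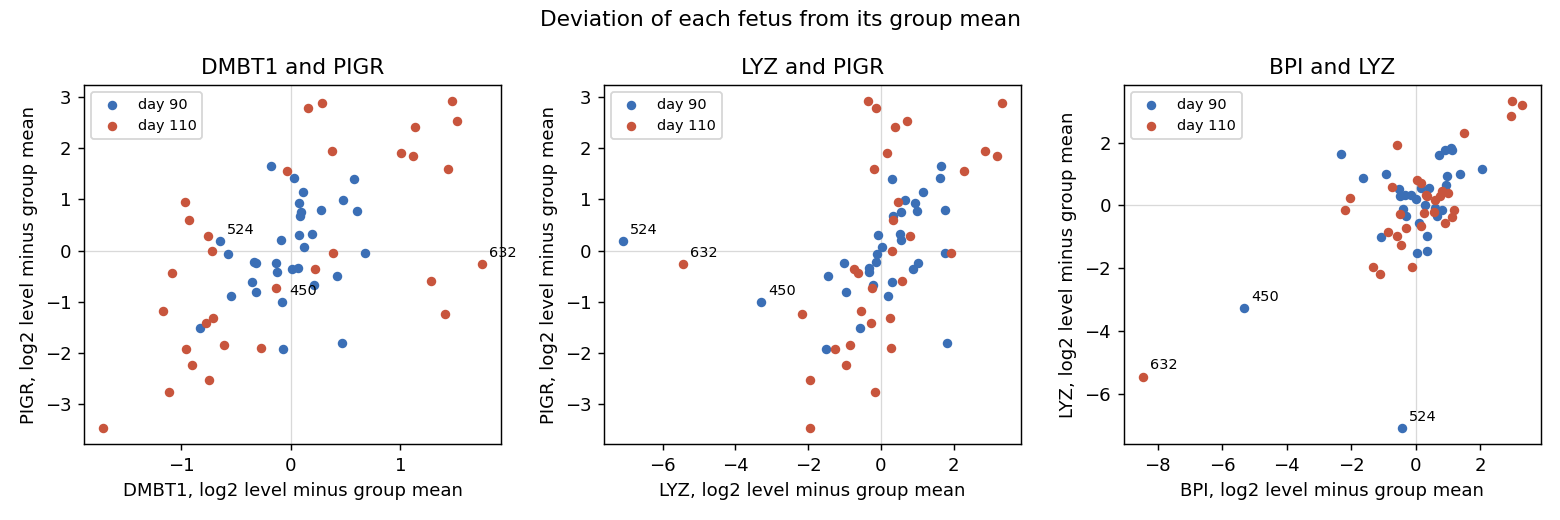
Deviation of each of 63 fetuses from its group mean (log2 level) for DMBT1 and PIGR, LYZ and PIGR, and BPI and LYZ, with day 90 in blue and day 110 in red. The points rise together in each panel over both days (r = 0.57, 0.43 and 0.62), though no pair shown passed within day 90 alone, and fetuses 632, 450 and 524 are labelled.

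The genes whose levels over the 63 fetuses most resembled each member were found among 9865 genes with a symbol, by Pearson's r. Group means were not subtracted here, so these values include the differences between ages and groups, and they carry no test. For PIGR they were HIGD1B (0.893), CD24 (0.886) and APRIL (0.876), and for LYZ they were WIPI1 (0.841), GHR, the growth hormone receptor (0.819), and CD24 (0.799). For DMBT1 they were SMPD3 (0.907), KHK, the fructose-phosphorylating kinase (0.896), and C15ORF48 (0.891). REG3G was most like AHCYL1 (0.881), SMPDL3B (0.875) and SEC14L2 (0.874), and LBP was most like SMPDL3B (0.879), FABP1, a fatty acid carrier of enterocytes and liver (0.876), and FOLH1 (0.854). BPI was most like CFB (0.882), a factor of the alternative complement path, PDX1 (0.859) and CFP (0.815), the properdin of that path. LCN2 and DUOXA2 had weaker counterparts, CYP26A1 (0.659) and ANKRD20A9P (0.713) being the first of each.

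Other genes of innate defence moved in both directions. Of 26 tested genes of other antimicrobial and mucosal proteins, 5 were higher and 3 lower at day 110 (limma, mean of genotypes), with a median log2 difference of -0.02, equal to that of all probes tested. The porcine beta-defensin PBD-2 rose by 1.24 (adjusted p = 9.32e-04) and the antimicrobial peptide gene LEAP2 by 1.09, while BPIFB1 and BPIFB2, secreted relatives of BPI, fell by 2.60 and 1.92. In the lipopolysaccharide recognition path, 0 of 13 genes were higher and 1 lower, IRAK3, which fell by 0.76 on the log2 scale. CD14 and TLR4, the partners of LBP in this path, had differences of 0.37 (adjusted p = 0.00192, under the size limit of 0.5) and 0.25 (adjusted p = 0.392), and LY96, the co-receptor of TLR4, of 0.03. The adaptor gene MYD88 had a difference of 0.49, also under the size limit.

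On the path of secretory antibody, 2 of 6 genes rose, with a median of 0.47 over the list. They were CCL28, a chemokine that draws IgA plasma cells to mucosa (2.77, limma adjusted p = 1.39e-10), and TNFSF13B, the B cell survival factor BAFF (1.35). IGJ, the joining chain that PIGR binds, had a difference of -0.24 (adjusted p = 0.139), and 0 of 5 B and plasma cell markers were called. Of 11 genes of oxidase partners and peroxidases, 1 rose, the GTPase gene RAC2 (1.12), and the list's median was -0.06. DUOX1 had a difference of -0.65 (adjusted p = 0.0362), NOXA1 of -0.06 and CYBA of -0.05. Among 13 genes of cytokine input to epithelial defence, IL1R1 (0.90) and STAT3 (0.56) rose and IL6 fell by 1.51, with a list median of 0.24.

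Markers of other cell types moved only in part with these changes. Goblet cell markers CLCA1 (1.51), SPINK4 (0.87) and FCGBP (0.86) rose in 3 of 4 cases, and their summed level went from 92.6 to 238 at day 90 (median 136) to 49.4 to 439 at day 110 (median 304). None of 4 epithelial markers passed, with differences of 0.13 to 0.44, and their summed level had medians of 229 and 362. Of 6 neutrophil markers 1 rose, CXCR2 (1.01), and their summed level was 0.258 to 5.97 at day 90 (median 1.01) and 0.348 to 5.64 at day 110 (median 0.991). Of 8 macrophage and monocyte markers 1 rose, CD163 (0.94), with summed medians of 18.8 and 17.0. Smooth muscle markers had summed medians of 510 and 423, and 1 of 6, ACTA2, fell by 0.55. Of 5 hepatocyte-list genes, TF, SERPINA1 and FGB fell, by 1.70, 1.18 and 0.83, while the summed level of the list went from 28.9 to 168 at day 90 (median 54.3) to 2.12 to 269 at day 110 (median 108). That sum was set mostly by APOA2, with a mean log2 level of 5.80, against 0.52 for SERPINA1, the next brightest. FGB was above background on 11 day 90 and 2 day 110 arrays, so its fall lies near background. The summed level of the B and plasma cell markers had medians of 0.624 and 0.324, and 0 of 2 pancreatic acinar markers passed. By genotype, the median neutrophil sum went from 0.644 to 1.501 in LW, from 0.978 to 1.45 in MSLW, from 2.42 to 1.09 in MS and from 1.08 to 0.4929 in LWMS. The part of these cell types in the members' changes was not tested.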

How the data were processed

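The authors hybridised Cy3-labelled cRNA of each fetus to a one-colour Agilent porcine array and deposited the scanner output, in which Agilent Feature Extraction 10.10.1.1 gives linear spot intensity values, corrected for background, with flags per spot. The authors also deposited log2 values for 39446 probes, which set against the scanner values are quantile-normalized median intensities. Each array had 61625 spots (1319 controls, none saturated), and the number of arrays limits the precision.

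Here, the log2 of the processed signal was centred on each array's 75th percentile, outlier spots were treated as missing, and spots of a probe were averaged. Each probe was fitted on the 8 group means in limma 3.58.1 (R 4.3.3, package data.table, version 1.17.8), with figures from matplotlib 3.10.9 in Python 3.11.15. All p-values are two-sided and adjusted by Benjamini-Hochberg over the 40515 probes tested. Thresholds follow the study: an adjusted p of 0.01 with a log2 difference of 0.5 for ages and breeds, 0.05 for sow and sire, and 0.01 for F tests. The sow, a random effect in the study, could not be a term. Intervals use 55 residual degrees of freedom. Where every array of a group left a probe at background, comparisons of that group alone in the main fit are given in the text as a bound or without a size. Averages over several groups, alternative settings and figures keep its measured values.

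The members and gene lists were chosen with earlier results of these data known. Each gene is represented by its brightest tested probe. Of each list, the genes with the largest and smallest changes are named, up to 4, with the partners of members; STAT3 and the hepatocyte-list genes beyond these were named after their values were seen. Another 4 probes filed under sequence numbers carry RefSeq accessions of DMBT1, PIGR, DUOX2 and LYZ, and were not counted as members. Gene neighbours follow RefSeq (Sscrofa11.1). Alternatives were the authors' values, median centring, quantile normalization, normexp (offset 50), 2 other filters, the slide as a block, array weights, and fits without fetuses 484 and 469, without the array of unusual share above background, and, added later, without fetus 632 or 450. Steps were tested on simulated data.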

Additional observations from a re-analysis of the deposited data

Results flagged for a closer look

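In 10 of 72 sets of values (9 genes in 8 groups), the fetus at one end lay farther from its nearest neighbour than Dixon's 95% limit for its group allows, and chance gives about 1 in 20. They came from 6 fetuses. Fetus 632 (MS, day 110) was low for REG3G (-3.81, nearest 3.19), LBP (-4.95, nearest -2.43) and BPI (-6.43, nearest 2.21). Fetus 450 (MSLW, day 90) was low for BPI (-4.63, nearest 0.32) and DUOXA2 (-5.44, nearest -3.93), and it had the highest smooth muscle sum of all fetuses (703) and the lowest neutrophil sum (0.258). Fetus 524 (MS, day 90) was low for LYZ (-6.97, group median 1.43) on 1 probe and for DUOX2 (-7.00, nearest -5.47). Single values were low in fetus 484 (LW, day 90) for BPI (-0.75, group median 1.67), in fetus 899 (MSLW, day 90) for LCN2 (-6.66, nearest -4.45) and in fetus 688 (MSLW, day 110) for REG3G (2.58, nearest 3.84).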

How the results depend on the processing

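Each comparison was repeated under 12 settings, 2 of them chosen after the data were seen. Of 853 values of single genes, 813 kept their direction and side of the threshold, 22 newly passed, 10 no longer passed and 8 turned their sign. Those 8 had not passed before: DUOXA2 by age in LW (0.29 with array weights, 0.23 with normexp), in MS (0.0021 in the authors' values, 0.025 with normexp) and in MSLW (0.11 in the authors' values), LBP between purebreds at day 110 (0.33 with array weights, 0.31 without fetus 632), and LCN2 by age in LW (0.0030 with normexp). With normexp, PIGR by age missed the threshold in MS (2.44) and MSLW (2.17), and LCN2 missed it for age, purebreds at day 110 (0.35), sow (0.22) and sire (0.26). With no filter on dim probes, LBP by age in MS (adjusted p = 0.0102), LCN2 between purebreds at day 110 (0.0135) and LCN2 by sow (0.0515) missed it too. The causes were not tested.

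Counts of member probes moved by over 1.5 times as follows. By age in MS there were 7, and 11 with array weights. Between purebreds there were 2 at day 110, but 1 with no filter and 0 with normexp. It was 1 with the stricter filter and 0 in the authors' values, neither of which holds every called probe. At day 90 there were 0, but 2 with array weights and 1 without fetus 632. By sow there were 6, and 11 with array weights, median centring, or without fetuses 484 and 469 or fetus 632. By sire there were 2, but 0 with normexp and 4 without fetuses 484 and 469, and, with called probes again missing, 1 with the stricter filter and 0 in the authors' values. By sow at day 110 there were 4, and 7 without fetus 632. By sire there was 1 at day 110, but 0 under 5 settings, 2 of which lack the called probe, and 2 without fetuses 484 and 469, and there were 0 at day 90, but 2 with array weights. Of the 28 pairs, 8 passed over both days, 5 at day 110 alone, 4 there without fetus 632 and 1 at day 90 alone, DUOXA2 and LBP, which was not among the 8. Of the 75 calls of member probes over all comparisons, 60 (normexp) to 75 were kept, and in the authors' values 63 were kept and 11 concerned probes outside that table. Over all probes, 5583 changed with age and 3167 did with normexp. No paired analysis was possible because fetus numbers name single fetuses and the labels share no number between groups. Signal near background limits PIGR and, on some arrays, REG3G and LBP at day 90, as well as LCN2, DUOXA2 and DUOX2.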

Other observations

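Some probes outside the naming rule were filed under members, and whether they read the same transcripts was not tested. The probe filed under the DMBT1 accession followed DMBT1 at r = 0.9996 over the 63 arrays and rose by 3.32 with age (limma adjusted p = 1.49e-20). Those of PIGR (r = 0.804) and LYZ (r = 0.915) rose by 2.57 (adjusted p = 1.91e-06) and 3.11 (adjusted p = 1.66e-10). The probes used for these genes rose by 5.01 and 3.45. The probe of the DUOX2 accession was not tested.

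DUOXA2 and LBP deviated together at day 90 and in opposite directions at day 110. After the group mean was subtracted, r was 0.57 at day 90 (adjusted permutation p = 0.0202), -0.64 at day 110 (adjusted permutation p = 0.0143) and -0.42 at day 110 without fetus 632 (adjusted permutation p = 0.0841). Without that fetus the day 110 value did not pass. These days were separated after the values were seen, and the difference between them was not tested. Signal near background limits both genes: DUOXA2 was above it on 28 day 90 and 21 day 110 arrays, and LBP on 26 and 30. Over both days the pair was not among the 8 that passed.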
